A study of Mus musculus with 56 samples.

Results

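The genes described here are 36 mouse genes known to be switched on by type I interferon, measured in whole front paws with and without collagen-induced arthritis (CIA), a mouse model of inflammatory joint disease. They were listed by symbol, and each of the 36 symbols matched 1 row among the 53431 features of the deposited table. Values are FPKM, fragment counts scaled to transcript length and library size, so levels are per length. Of the 36 genes, 33 reached a mean of 1 FPKM in at least 1 group and entered the tests; Herc6, Ddx60 and Mx2 stayed below that level in every group and are described by their values. Rsad2, Mx1, Cmpk2, Ifi44, Ifit1 and Trim30a had means below 1 FPKM without CIA and entered only through the immunised groups.

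Type I interferons are secreted by cells that sense foreign or misplaced nucleic acid. They bind the receptor pair IFNAR1 and IFNAR2, whose kinases JAK1 and TYK2 activate STAT2; with IRF9 it is part of the factor ISGF3, which binds the interferon-stimulated response element in the promoters of target genes. The targets include antiviral proteins, sensors that make the cell more alert, the pathway's own factors, and brakes such as USP18. Many of them also respond to interferon gamma or type III interferon, and they are raised in blood and joints in several rheumatic diseases.

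The 56 libraries came from male DBA/1 mice, and mouse numbers in the titles differ between all libraries. The 4 mice of the no CIA group were neither immunised nor given antibody. Each of the other groups held 13 mice that received chicken type II collagen on days 1 and 21 and intraperitoneal antibody 2 times a week for 5 weeks from day 21. These were isotype control IgG1 at 30 mg/kg (isotype), an antibody to murine TNF (clone XT3.11) at 30 mg/kg (anti-TNF), an antibody to murine IL-6 (clone MP5-20F3) at 10 mg/kg (anti-IL-6), or both of the latter at these doses (combination). RNA was taken on day 91, after dosing had ended, so the values show the paw at that time and not during treatment. Because no CIA mice lack both immunisation and antibody, the comparison of isotype with no CIA cannot tell these 2 apart.

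Depth, estimated from the steps of low FPKM values, lay between 39.95 and 54.73 M (mega) fragments, and no pair of libraries held identical values. Markers of the tissues of a paw were present in every library: summed over their lists, 6 skeletal muscle genes gave 1032 to 34017 FPKM, 5 epidermis genes 3767 to 24426 FPKM and 4 cartilage genes 90.3 to 1071 FPKM. Without CIA the cartilage sum was mostly Comp: in no CIA replicate 1 Comp was 142 FPKM, Col2a1 0.656, Acan 1.26 and Matn3 0 FPKM. In such whole tissue, fewer cells of a type and less RNA per cell cannot be told apart. Ordered by the index numbers in their titles, the libraries fall into 5 stretches, here called index runs, which begin at index numbers 39, 45, 58, 71 and 84. Within a stretch the mouse numbers mostly rise, and they drop back where the next begins. The labels name no batch, so what these runs stand for is not known. All 4 no CIA libraries are in run 1, where the only immunised libraries are isotype replicates 4 and 7.

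Promoter sequence was available for 26 of the 36 genes in a RefSeq table (GRCm38.p6, 300 bases per promoter, from 250 before the start site to 50 after it). The core of the response element was searched as GAAANNGAAA on both strands, where matches may overlap, as they do in Isg15 and Bst2. It occurred in 13 of the 26 genes and in 3.99% of all 27025 genes in that table. The promoters below are examples in which the match lies before the start site. Rsad2, Slfn5, Trim30a and Ddx60 also have a match there and are not shown. Capitals mark matched bases, and in Ifit1, Ifit3, Ifit3b and Stat2 the match is on the opposite strand, so its reverse complement is read.
Isg15 (chr4:156200855-156200916, minus strand): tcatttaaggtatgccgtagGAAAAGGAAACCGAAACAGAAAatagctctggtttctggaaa
Ifit1 (chr19:34640765-34640833, plus strand): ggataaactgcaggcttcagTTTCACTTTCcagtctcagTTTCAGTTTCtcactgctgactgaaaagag
Ifit3 (chr19:34583353-34583436, plus strand): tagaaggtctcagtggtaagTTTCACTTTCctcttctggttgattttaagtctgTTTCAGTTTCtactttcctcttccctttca
Ifit3b (chr19:34607749-34607832, plus strand): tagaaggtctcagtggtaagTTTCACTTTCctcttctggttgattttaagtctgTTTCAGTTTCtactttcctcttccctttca
Bst2 (chr8:71537567-71537622, minus strand): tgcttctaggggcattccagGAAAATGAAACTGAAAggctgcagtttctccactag
Stat2 (chr10:128270256-128270305, plus strand): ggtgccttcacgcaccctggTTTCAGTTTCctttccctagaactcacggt
Isg15 has 3 overlapping matches, which begin 78 to 66 bases before its start site, and Ifit1, Ifit3, Ifit3b and Bst2 have 2 each. The windows of Ifit3 and Ifit3b are identical and sit in a run of 169 bases that the 2 promoters share. Single matches were found in Rsad2, Slfn5, Ifih1, Ddx58, Eif2ak2 and Trim30a, and 2 in Ddx60. Herc6, Irf9, Irf7, Ifit2, Cmpk2, Samd9l, Dtx3l, Ifi44, Xaf1, Lgals3bp, Ifi35, Phf11d and Epsti1 had none in this window, which says only that these letters are not there.

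Mean expression of every one of the 36 genes was higher in paws of immunised, isotype-treated mice than without CIA. The differences ranged from 0.22 (Ifi35) to 1.75 (Rtp4) on the log2(FPKM + 1) scale, with a median of 0.68, against a median of 0.03 over all 14700 features tested. Of the 33 genes tested, 11 rose (adjusted p under 0.05, limma with Benjamini-Hochberg adjustment over all features tested) and none fell, where 0.15% of all features rose. Without overlap, that is, with every isotype library above every no CIA library, stood 24 of the 36 genes and 22 of the 33 tested, against 1.59% of all features tested. Because 1 is added before the log, these differences understate the change of low genes: as a ratio of mean FPKM, isotype over no CIA, the range was 1.18 (Ifi35) to 9.25 (Ifi44), and 19 of the 36 genes had a ratio of at least 2. The 11 calls rest heavily on the small no CIA group. Without no CIA replicate 4 none of the 33 genes was called (30 had an unadjusted p under 0.05 in limma), and 0 of all features tested were. Without replicate 1 or 2, 5 of the genes were called, among 8 features in all each time. Without isotype replicate 5 it was 17, among 59 features. The median difference stayed between 0.62 and 0.72 over the 17 fits that left out 1 library.

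**Figure D1:**
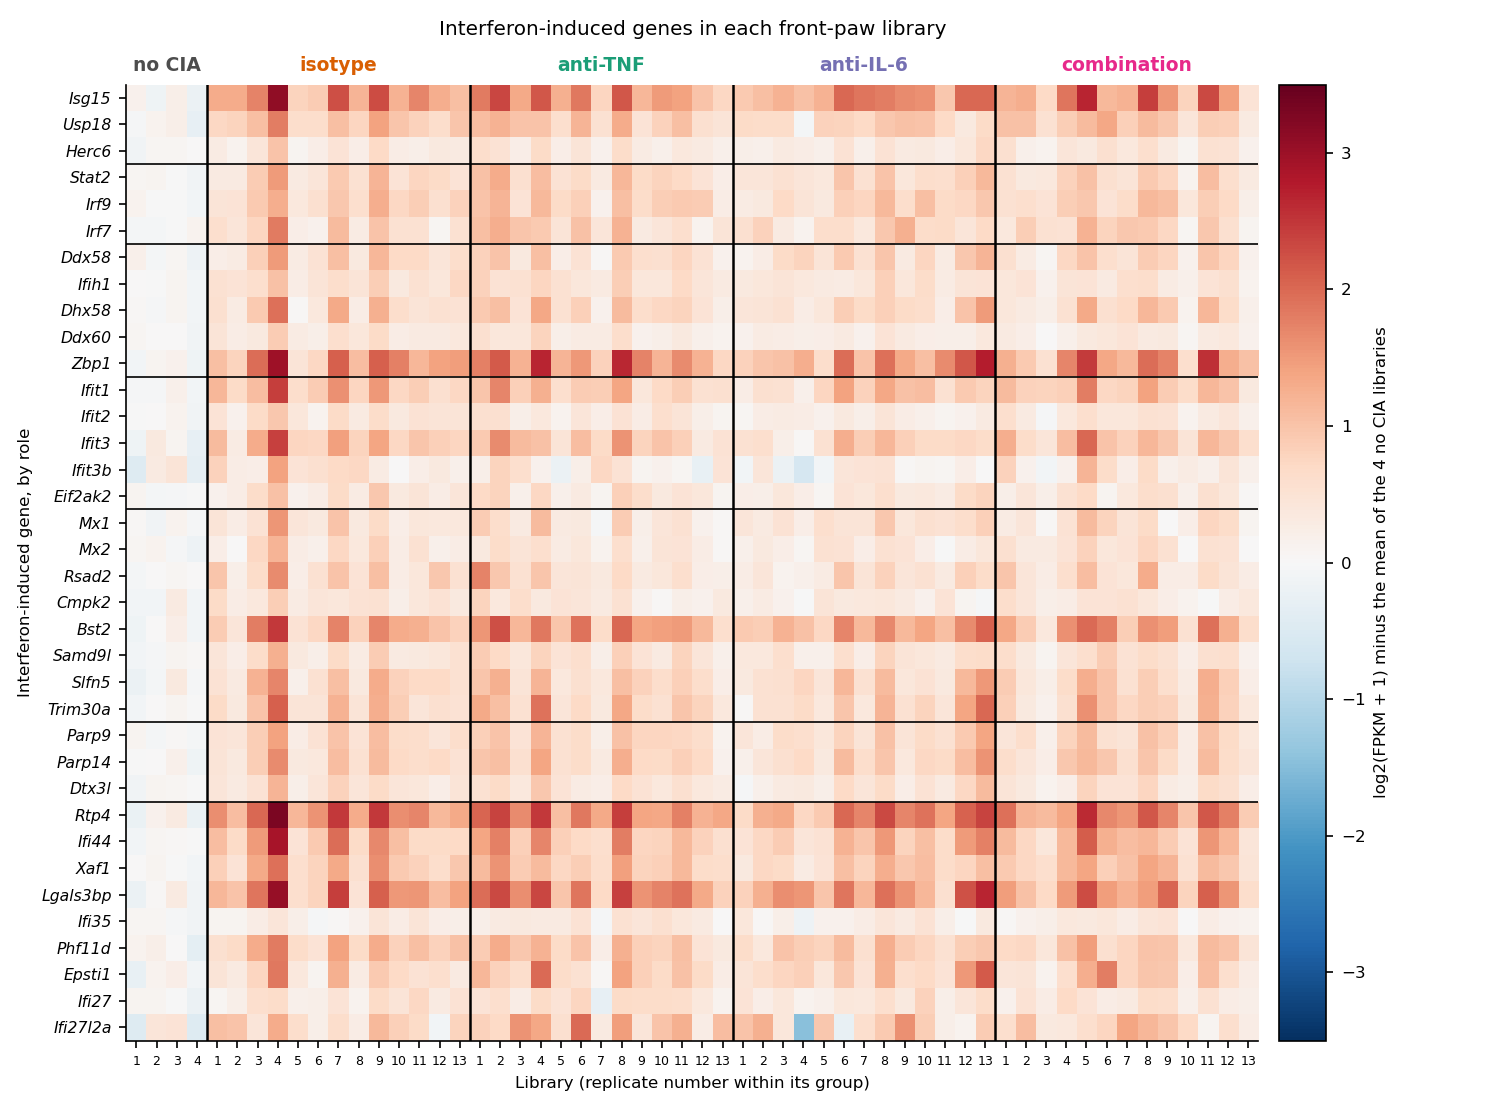
Each row is 1 of the 36 interferon-induced genes, grouped by role, and each column 1 of the 56 libraries, numbered by replicate within its group; colour gives log2(FPKM + 1) minus the mean of the 4 no CIA libraries. The 4 no CIA columns are pale, most immunised columns are red in nearly all rows, and isotype replicate 4 is the darkest.

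The ISG15 system attaches a ubiquitin-like protein, ISG15, to other proteins. Isg15 (chr4:156199424-156200818) measured 3.24, 2.40, 3.40 and 2.27 FPKM in the 4 no CIA libraries and 5.56 to 31.7 FPKM, median 8.29, in the isotype group. The groups did not overlap, and Isg15 rose by a log2 difference of 1.55 ± 0.321 (SE; adjusted p = 0.0157). Usp18 (chr6:121245906-121270917), the protease that removes ISG15 and also restrains the receptor, measured 1.37, 1.67, 1.82 and 1.01 FPKM without CIA and 2.74 to 7.53 FPKM, median 3.26, in the isotype group. It too had no overlap and rose by 0.94 ± 0.173 (adjusted p = 0.00534). Herc6, the main ISG15 ligase of the mouse, stayed low, at 0.351 to 0.544 FPKM without CIA and 0.578 to 1.96 FPKM in the isotype group, and was not tested.

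Among the genes of the signalling factors, Irf9, the DNA-binding part of ISGF3, was the 1 that rose. Irf9 (chr14:55603571-55610030) measured 11.1, 10.0, 9.95 and 9.30 FPKM without CIA and 13.2 to 25.8 FPKM, median 17.2, in the isotype group. No library overlapped, and the log2 difference was 0.75 ± 0.159 (adjusted p = 0.0183). Stat2, its partner, lay at 4.88 to 5.89 FPKM without CIA and 7.03 to 17.1 FPKM in the isotype group, again without overlap, with a difference of 0.68 ± 0.171 that missed the threshold (adjusted p = 0.0740). Irf7, which amplifies interferon production, had 5.55 to 6.50 FPKM without CIA and 6.12 to 23.3 FPKM in the isotype group; these ranges overlapped, and its difference of 0.62 ± 0.207 was not called (adjusted p = 0.207).

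Of the sensors of viral or Z-form nucleic acid, Ifih1 rose. Ifih1 (chr2:62595798-62646255), which encodes the sensor MDA5 of long double-stranded RNA, measured 1.13, 1.07, 1.24 and 0.948 FPKM without CIA and 1.49 to 3.27 FPKM, median 2.01, in the isotype group. All 13 isotype libraries were above the no CIA libraries, and the log2 difference was 0.56 ± 0.102 (adjusted p = 0.00534). Zbp1, the sensor of Z-form nucleic acid that can start necroptosis, had 0.788 to 1.23 FPKM without CIA and 1.74 to 14.6 FPKM in the isotype group, a difference of 1.46 ± 0.351 that missed the threshold (adjusted p = 0.0571). The differences of Ddx58 (RIG-I, a sensor of RNA ends) and Dhx58 (LGP2, which regulates both RNA sensors) were 0.66 ± 0.188 and 0.70 ± 0.225, with adjusted p of 0.116 and 0.195. Ddx60, a related helicase, lay at 0.147 to 0.310 FPKM without CIA and 0.437 to 1.31 FPKM in the isotype group and was not tested.

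The IFIT proteins bind foreign RNA and block its translation, and their genes lie side by side on chromosome 19. Ifit1 (chr19:34640871-34650009) measured 0.650, 0.656, 0.915 and 0.578 FPKM without CIA and 1.52 to 8.11 FPKM, median 2.09, in the isotype group. It did not overlap and rose by 1.04 ± 0.229 (adjusted p = 0.0273). Ifit2 (chr19:34550694-34576419), which also promotes cell death, measured 1.13, 1.19, 1.37 and 0.986 FPKM without CIA and 1.34 to 3.13 FPKM, median 1.97, in the isotype group; the lowest isotype library lay just under the highest no CIA library, and Ifit2 rose by 0.47 ± 0.101 (adjusted p = 0.0214). Ifit3 (chr19:34583531-34588731), a partner of IFIT1, measured 3.01, 4.61, 3.77 and 2.67 FPKM without CIA and 4.42 to 22.2 FPKM, median 6.90, in the isotype group. These ranges overlapped slightly, and Ifit3 rose by 1.04 ± 0.233 (adjusted p = 0.0345). Ifit3b, its near-identical copy, had 0.818 to 2.36 FPKM without CIA and 1.51 to 5.52 FPKM in the isotype group, a difference of 0.48 ± 0.195 that was not called (adjusted p = 0.267). Reads shared between Ifit3 and Ifit3b make the split between them uncertain. Eif2ak2, the kinase PKR that stops translation on double-stranded RNA, differed by 0.45 ± 0.135 (adjusted p = 0.153).

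None of the 7 antiviral effectors tested passed the threshold between isotype and no CIA. All 7 had an unadjusted p under 0.05 in limma, as had 2449 of all 14700 features tested. The smallest p in this role was that of Bst2 (chr8:71534255-71537456), tetherin, which holds budding virus at the cell surface. Bst2 measured 8.72, 9.78, 11.5 and 9.14 FPKM without CIA and 13.3 to 58.5 FPKM, median 20.4, in the isotype group. The groups did not overlap, and the difference was 1.18 ± 0.283 (adjusted p = 0.0571). Rsad2 (viperin) and Cmpk2, neighbours on chromosome 12 that serve antiviral nucleotide metabolism, differed by 0.68 ± 0.200 and 0.44 ± 0.107, with adjusted p of 0.141 and 0.0571. Rsad2 was low in both groups, at 0.202 to 0.324 FPKM without CIA and 0.445 to 2.95 FPKM in the isotype group, without overlap. The dynamin-like GTPase genes were low as well: Mx1, which carries a defective allele in many inbred strains, had means of 0.597 ± 0.115 FPKM (SD, n = 4) without CIA and 1.39 ± 0.771 FPKM (SD, n = 13) in the isotype group (adjusted p = 0.196), and Mx2 had 0.428 ± 0.136 and 0.985 ± 0.511 FPKM and was not tested. Samd9l, which restricts translation in infected cells, Slfn5, a schlafen family gene, and Trim30a, a tripartite motif gene, differed by 0.50 ± 0.133, 0.76 ± 0.211 and 0.79 ± 0.258, with adjusted p of 0.0945, 0.108 and 0.196.

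The ADP-ribosylation genes lie together on chromosome 16 and had similar differences, with no call. Parp9 (chr16:35938470-35972605), whose product works with the ubiquitin ligase DTX3L, measured 4.37, 3.83, 4.13 and 3.77 FPKM without CIA and 5.04 to 12.3 FPKM, median 6.66, in the isotype group. The groups did not overlap, and the difference was 0.68 ± 0.170 (adjusted p = 0.0691). Parp14 and Dtx3l differed by 0.71 ± 0.195 and 0.50 ± 0.138, both with an adjusted p of 0.108. Parp9 and Dtx3l overlap on opposite strands at their ends, and whether strand was used in counting is not given in the sources used here, so reads of the overlap may have been counted to either.

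The genes of other or less defined functions held the largest difference of the set, that of Rtp4. Rtp4 (chr16:23520291-23614222), which encodes a chaperone that also tunes antiviral signalling, measured 1.76, 2.62, 3.00 and 1.79 FPKM without CIA and 5.93 to 30.8 FPKM, median 8.99, in the isotype group. There was a clear gap between the groups, and Rtp4 rose by 1.75 ± 0.308 (adjusted p = 0.00534). Lgals3bp (chr11:118392751-118402092), a secreted galectin-binding glycoprotein, measured 7.93, 9.56, 11.8 and 8.51 FPKM without CIA and 13.4 to 84.2 FPKM, median 26.6, in the isotype group. It rose by 1.46 ± 0.335 without overlap (adjusted p = 0.0411), the call among the 11 that was lost most often when 1 library was left out: it was kept in 7 of 17 such fits, against 16 for Usp18, Ifih1, Rtp4, Xaf1 and Phf11d. Xaf1 (chr11:72301629-72313733), which promotes cell death, measured 5.81, 6.17, 5.72 and 5.26 FPKM without CIA and 8.42 to 24.6 FPKM, median 11.0, in the isotype group. It rose by 0.98 ± 0.188 (adjusted p = 0.00575), again with no library overlapping. Phf11d (chr14:59347407-59365470), 1 of a cluster of related genes that can share reads, measured 3.71, 3.97, 3.33 and 2.40 FPKM without CIA and 5.04 to 14.3 FPKM, median 6.58, in the isotype group, and rose by 0.96 ± 0.184 (adjusted p = 0.00575), also with no overlap. Ifi44 showed the highest ratio of means, from 0.150 to 0.272 FPKM without CIA to 0.719 to 7.97 FPKM, yet at this low level its log2 difference was 1.15 ± 0.286 and was not called (adjusted p = 0.0686).

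Ifi27l2a and Ifi27, small mitochondrial or nuclear-envelope proteins and the most abundant genes of the set, and Ifi35, a leucine zipper protein, were not called. Ifi27l2a had a mean of 91.0 ± 32.0 FPKM (SD, n = 4) without CIA and 144 ± 38.98 FPKM (SD, n = 13) in the isotype group, Ifi27 74.2 ± 7.41 and 98.6 ± 15.4 FPKM, and Ifi35 19.3 ± 1.30 and 22.7 ± 2.54 FPKM. All 3 overlapped between the groups, with log2 differences of 0.67 ± 0.307, 0.40 ± 0.128 and 0.22 ± 0.0949 and adjusted p of 0.279, 0.195 and 0.272. Epsti1, an interferon-induced gene of activated macrophages and stroma, differed by 0.64 ± 0.268 (adjusted p = 0.268).

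**Figure D2:**
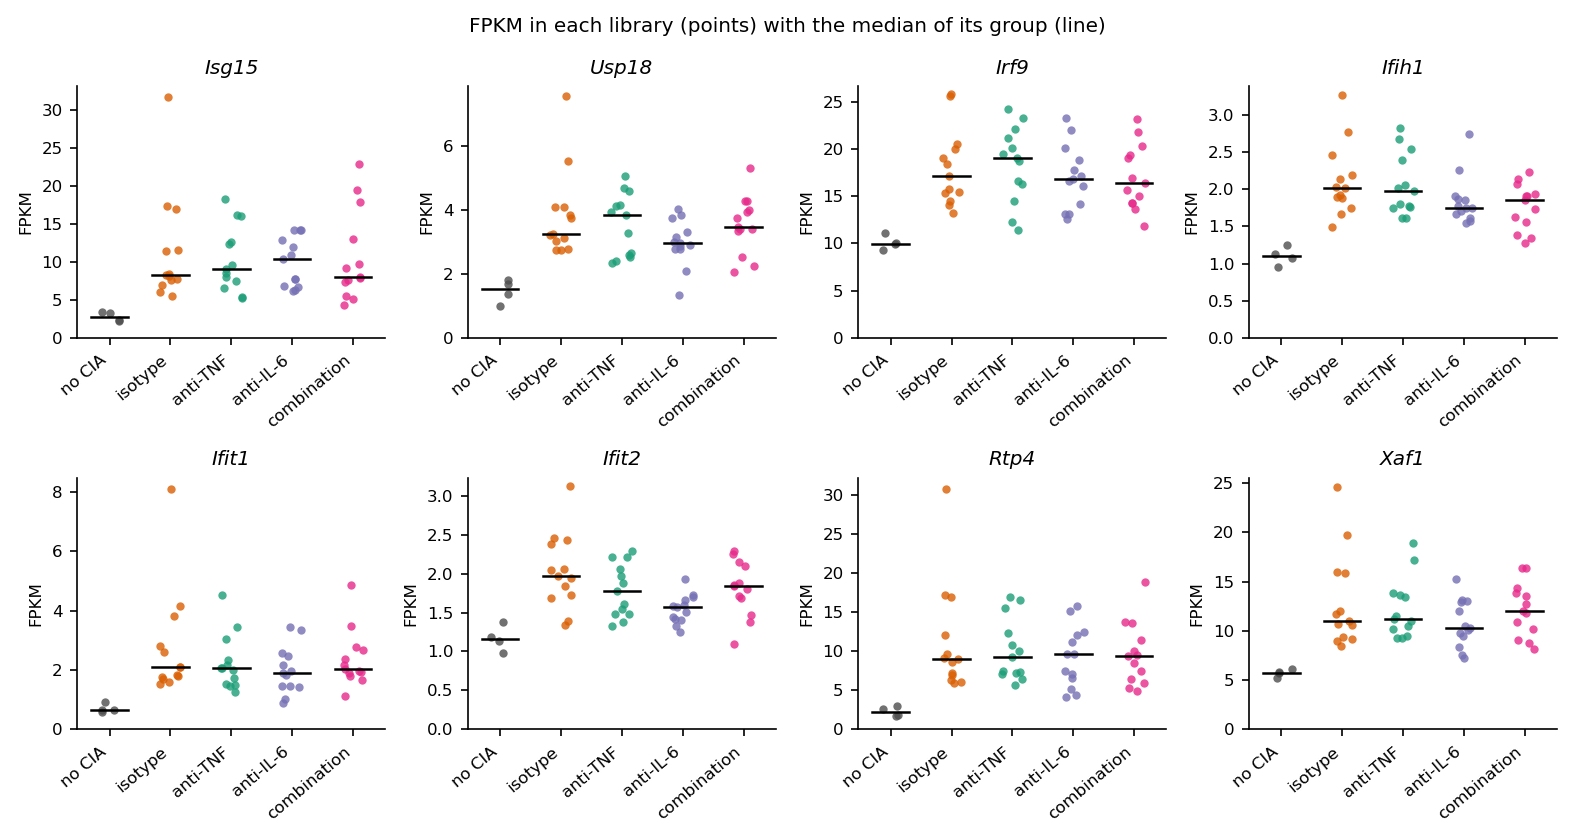
Each point is the FPKM of 1 library for 8 of the genes that rose between no CIA and isotype, by group, and each black line is the group's median; the axes are linear and start at 0. For Isg15, Irf9, Ifih1, Rtp4 and Xaf1 all immunised libraries lie above the no CIA libraries, while Usp18, Ifit1 and Ifit2 have immunised libraries within the no CIA range.

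The antibody-treated groups also stood above no CIA. These 3 comparisons share the 4 no CIA libraries with each other and with the first, so their values are given side by side and are not independent. Anti-TNF had 14 of the 33 genes higher (0.476% of all features), anti-IL-6 had 10 (0.401%) and the combination 7 (0.143%), with none lower. Median differences over the 36 genes were 0.71, 0.64 and 0.65, and all 36 were above 0 in each group. Over the 33 genes tested these medians were 0.73, 0.65 and 0.68. They became 0.35, 0.25 and 0.29 with the neutrophil score as a covariate, 0.27, 0.19 and 0.26 with the macrophage score and 1.42, 1.43 and 1.45 with the index run. No antibody-treated library is in run 1, so the fit with the index run ties no CIA to these groups only through isotype replicates 4 and 7. Isg15, Usp18, Irf9, Rtp4, Xaf1 and Phf11d were higher than no CIA in all 4 immunised groups, as 0.0952% of all features were. Stat2, Samd9l and Parp9 were called with anti-TNF, Zbp1 with anti-TNF and anti-IL-6, and Bst2 with all 3 antibody treatments, none of them with isotype; none of these 5 genes was called between any 2 immunised groups. In all, 16 of the 33 genes tested were called in at least 1 group, against 0.619% of all features.

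Without overlap with no CIA stood 21 genes in the anti-TNF group (0.714% of all features), 21 with anti-IL-6 (2.7%) and 23 with the combination (1.46%). Of the 36 genes, 15 kept every immunised library of all 4 groups above every no CIA library: Isg15, Herc6, Stat2, Irf9, Ifih1, Zbp1, Rsad2, Bst2, Samd9l, Parp9, Rtp4, Ifi44, Xaf1, Lgals3bp and Phf11d. All but Herc6 were among the 33 tested, and 0.245% of all features tested did the same. At the other end, Irf7, Ifit2, Ifit3b, Mx2, Cmpk2, Slfn5, Ifi35 and Ifi27l2a overlapped in all 4 groups. For Isg15 the medians were 9.14 FPKM with anti-TNF, 10.4 FPKM with anti-IL-6 and 8.09 FPKM with the combination, beside 8.29 FPKM with isotype and 2.82 FPKM without CIA. For Rtp4 they were 9.29, 9.61 and 9.35 FPKM, beside 8.99 FPKM and 2.20 FPKM. These calls too depended on single no CIA libraries, and brackets give all features called in the same fits. Without no CIA replicate 4 the calls numbered 1, 0 and 0 (7, 19 and 0). Without replicate 1 they numbered 8, 2 and 0 (26, 31 and 0). Without replicate 2 they numbered 7, 1 and 0 (20, 17 and 0). Without replicate 3 they numbered 11, 4 and 2 (64, 39 and 13). The 7 calls of the combination also moved with its own libraries. They numbered 12 without combination replicate 3 (50) and 11 without replicate 10 (45). They numbered 3 without replicate 4, 8 or 11 (13, 16 and 16), and 4 without replicate 1, 5, 9 or 12 (15, 18, 18 and 17).

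**Figure D3:**
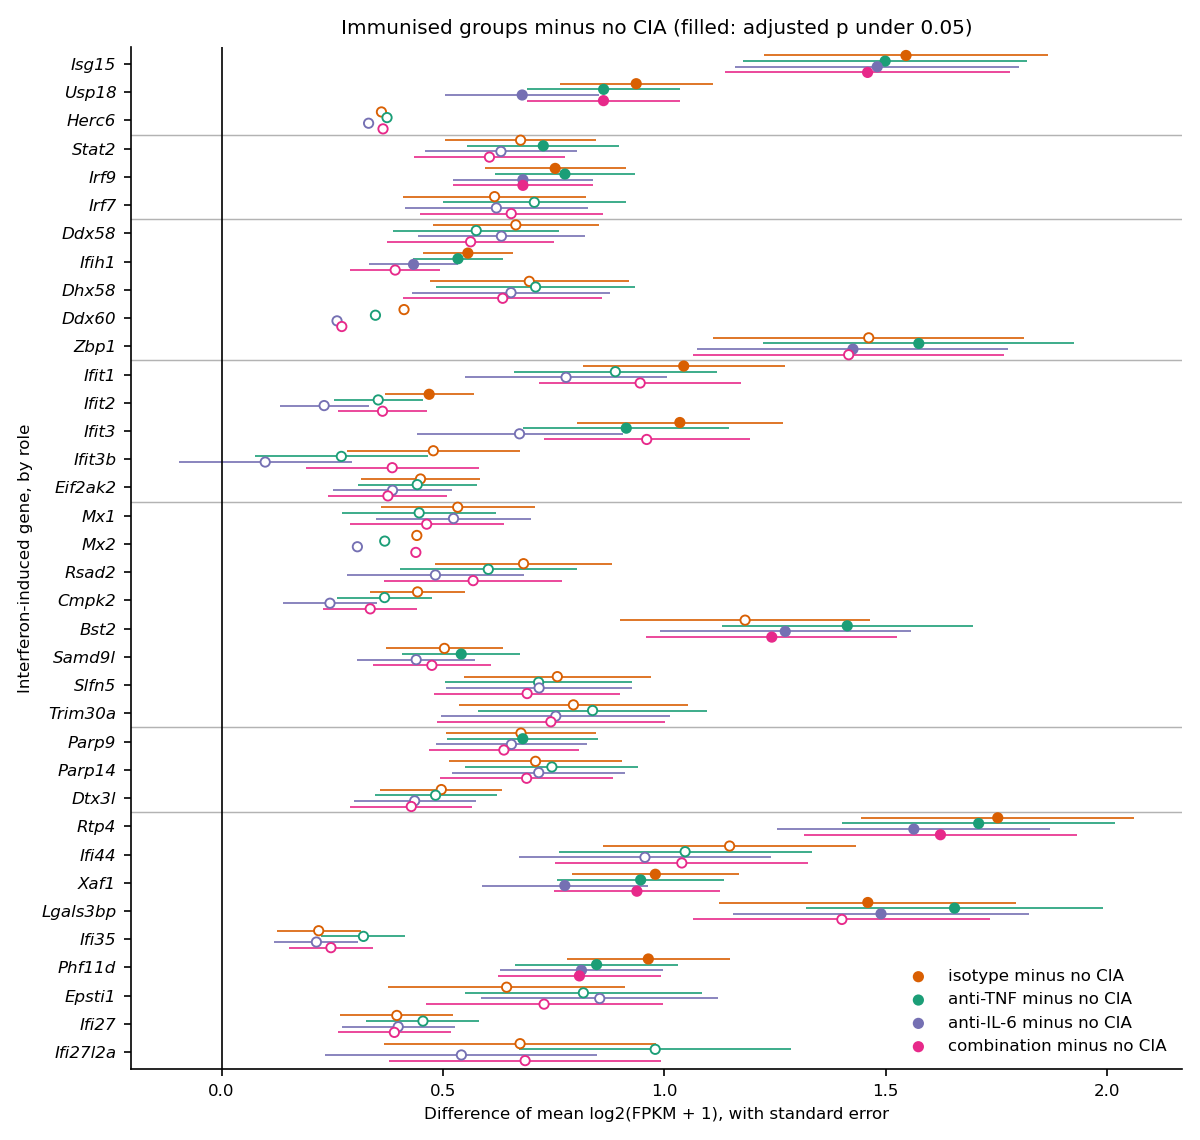
For each of the 36 genes, points give the difference of mean log2(FPKM + 1) between an immunised group and no CIA, bars its standard error (none for the 3 genes not tested), and filled points an adjusted p under 0.05. All points lie to the right of 0, from 0.10 (Ifit3b, anti-IL-6) to 1.75 (Rtp4, isotype), and the 4 groups lie close together for most genes.

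No gene of the set was called between any 2 immunised groups. Against isotype, anti-TNF gave differences of -0.21 to 0.31 with a median of -0.02, and 0 of the 33 genes had an adjusted or an unadjusted p under 0.05 in limma; 0% of all features were called. The combination gave -0.16 to 0.08 with a median of -0.07, with 1 unadjusted p under 0.05, that of Ifih1 (-0.16 ± 0.0697, adjusted p = 0.831); again 0% of all features were called. Anti-IL-6 gave -0.38 to 0.21 with a median of -0.06, and 0 of the 33 genes were called, where 0.952% of all features were. Of the 33, 5 had an unadjusted p under 0.05 in limma. Of all 14700 features tested, 1882 had one with anti-IL-6, 850 with the combination and 804 with anti-TNF. All 33 intervals of each of these comparisons lay within ±1, so a doubling or halving of FPKM + 1 lay outside every one of them. Their outermost bounds were -0.68 (Ifit3, anti-IL-6) and 0.73 (Ifi27l2a, anti-TNF). For most of the 33 genes isotype stood less than 1 above no CIA (median 0.68), so ±1 is wider than that gap.

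The 5 genes with an unadjusted p under 0.05 between anti-IL-6 and isotype were Ifit2, Ifit3b, Cmpk2, Ifit3 and Usp18, and all were lower with anti-IL-6. Ifit2 came closest to a call, with 1.25 to 1.93 FPKM, median 1.57, under anti-IL-6 against 1.34 to 3.13 FPKM, median 1.97, under isotype. The ranges overlapped, and the difference was -0.24 ± 0.0691 (95% interval -0.38 to -0.10, adjusted p = 0.0780). Under some other settings Ifit2 was called. Brackets give all features called higher and lower in the same fit, which were 108 and 32 in the main fit. The adjusted p in limma was 0.0247 with median-of-ratios scaling (184 and 61) and 0.0159 with a neutrophil score as covariate (113 and 40). It was 0.00840 with a macrophage score (131 and 43), 9e-04 with muscle and epidermis scores (295 and 154), and 0.0496 without isotype replicate 2. None of the 33 genes was called with a pseudocount of 0.1 or 10, the index run or the compared groups alone, and none of the 36 with no filter. Ifit3 was called with muscle and epidermis scores (-0.45, adjusted p = 0.0447). The differences of Ifit3b, Cmpk2, Ifit3 and Usp18 were -0.38 ± 0.134, -0.20 ± 0.0731, -0.36 ± 0.160 and -0.26 ± 0.119, with adjusted p of 0.167, 0.192, 0.310 and 0.338. Differences from isotype were below 0 for 30 of the 36 genes with anti-IL-6, but with the index run as a covariate 17 of the 33 tested were above 0 and the median was 0.04. The medians of anti-TNF and the combination against isotype turned to 0.09 and 0.08 in that fit, each with 29 of 33 above 0 and none called.

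The other contrasts between treated groups gave 0 calls in limma as well. Combination against anti-TNF (0% of all features called) had 1 unadjusted p under 0.05, that of Ifih1, combination against anti-IL-6 (0.102%) had 1, that of Ifit3b at 0.29 ± 0.134, and anti-TNF against anti-IL-6 (0%) had 1, that of Ifi27l2a at 0.44 ± 0.211. Among all features tested such p-values numbered 160, 1671 and 688 in that order. The test of whether the 2 antibodies together differed from the sum of their single effects (0.116% of all features called) called none of the genes. It gave 2 unadjusted p under 0.05, for Ifit3b (0.49 ± 0.190, adjusted p = 0.379) and Ifit2 (0.25 ± 0.0977, adjusted p = 0.394), beside 1407 among all features tested. Ifit2 was called in this test when muscle and epidermis scores were covariates (0.33, adjusted p = 0.0226). For 34 of the 36 genes the range of the 4 immunised means was smaller than the gap from no CIA to the lowest of them; the exceptions were Ifit2 and Ifit3b. The median range was 0.14 and the median gap 0.63.

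**Figure D4:**
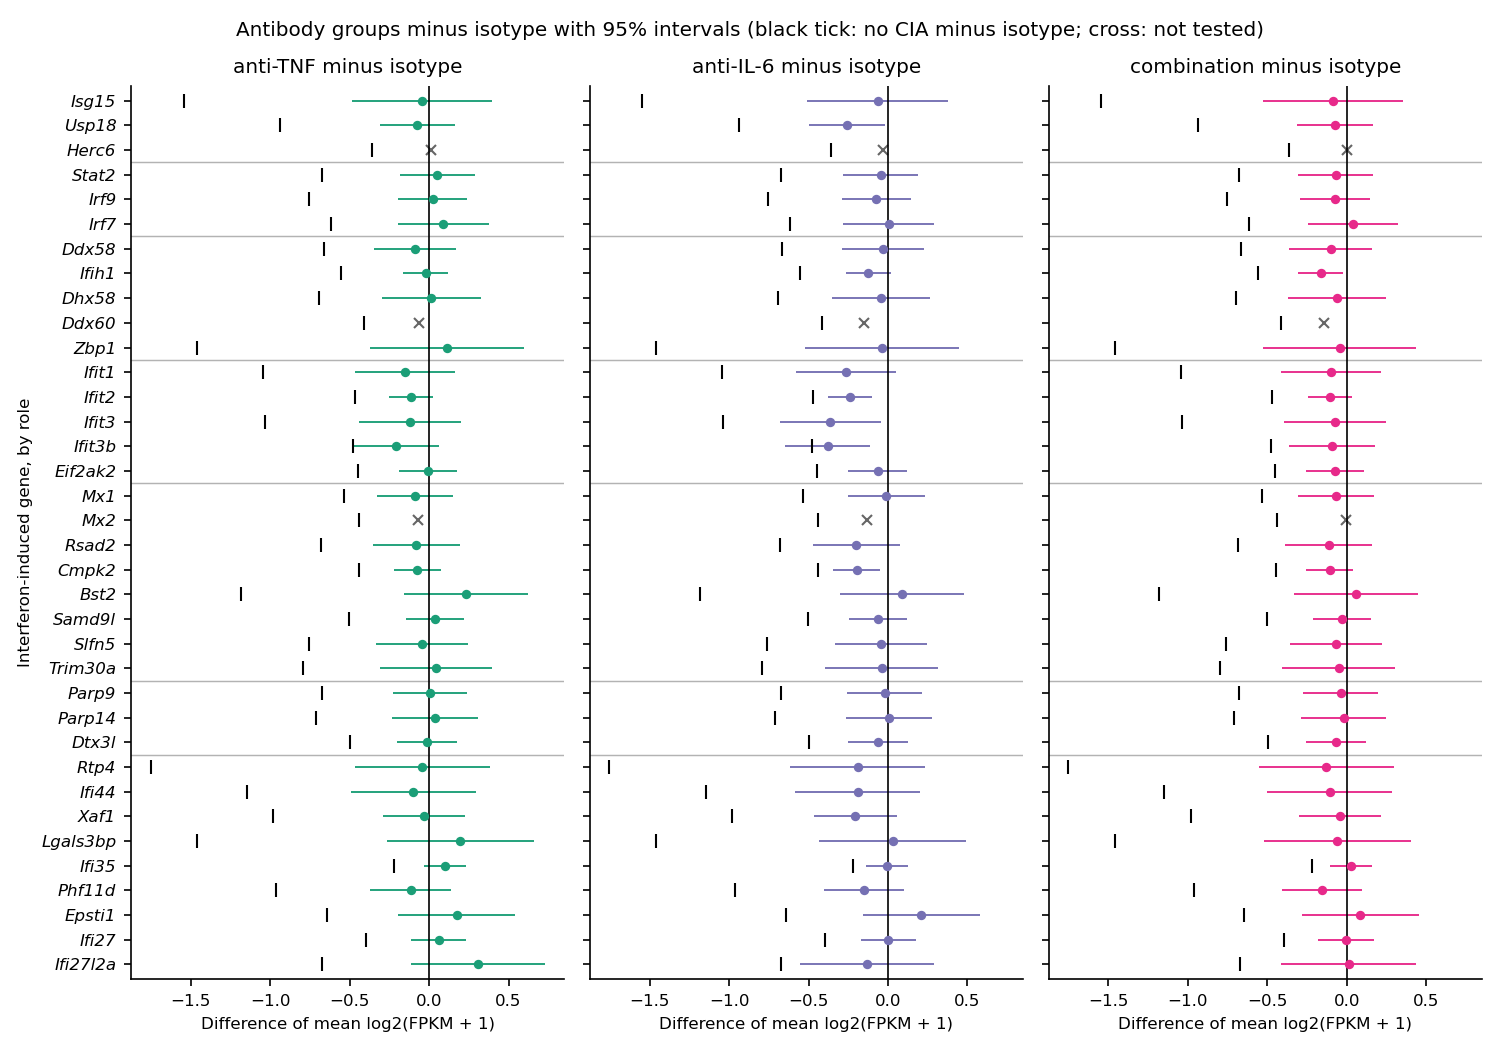
For each gene and antibody group, the point is the difference of mean log2(FPKM + 1) from isotype and the bar its 95% interval; crosses are the 3 genes not tested, and black ticks mark where the no CIA mean lies on the same scale. The points gather around 0, between -0.38 and 0.31, and the tick lies to the left of the interval for every gene tested except 1 with anti-IL-6.

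Within groups the genes varied together from mouse to mouse. With each gene scaled to unit spread around its group means, 1 axis carried 69.3% of the variance, and all 36 genes had the same sign on it; a second axis carried 8.09%. Ifi27l2a and Cmpk2 shared least with that axis, at 7.79% and 8.63% of their variance, and Dhx58 most, at 90.3%. The isotype group spread more widely than no CIA for 33 of the 36 genes. The SD of log2(FPKM + 1) had a median of 0.38 in the isotype group and 0.11 without CIA. The ratio of the highest to the lowest library had a median of 3.22 in the isotype group and 1.49 without CIA, and it reached 11.1 for Ifi44 with isotype. This ratio tends to grow with the number of libraries, which was 13 with isotype and 4 without CIA. Neither the wider spread nor the shared axis was measured over all features. The cell marker scores, except that of plasmacytoid dendritic cells, also spread more widely with isotype. Their SD with isotype and without CIA was 1.03 and 0.22 for neutrophils, and 0.51 and 0.11 for macrophages. Isotype replicate 4 was the highest of its group for 34 of the 36 genes. Without this library the count of genes called against no CIA was 10, among 17 features called in all, and the median difference 0.62. In index run 1 alone, both isotype libraries (replicates 4 and 7) lay above all 4 no CIA libraries for 35 of the 36 genes, with a median difference of 1.30 and Ifi35 as the exception. With only 2 libraries on one side, 30.6% of all features tested did the same. The 11 isotype libraries of other runs had a median difference of 0.57 from no CIA, with all 36 above 0 and 24 without overlap (22 of the 33 tested, against 1.62% of all features).

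Markers of several cell types were also higher on average in isotype than without CIA, with none called. The 8 neutrophil markers, all tested, were each higher, with a median log2 difference of 1.19. Their summed level was 52.5 to 72.7 FPKM without CIA, 57.6 to 1211 FPKM with isotype, 52.9 to 2592 FPKM with anti-TNF, 74.3 to 2289 FPKM with anti-IL-6 and 69.2 to 1109 FPKM with the combination. Il1r2 made up a large part of the sum without CIA, at 25.5 to 34.0 FPKM, and differed by only 0.03 between isotype and no CIA. The 10 monocyte and macrophage markers were each higher too (median 0.82), with sums of 387 to 488 FPKM without CIA and 395 to 1679.8, 383 to 2245, 529 to 2757 and 437 to 1329 FPKM in the same order of groups. No marker of either list was at 0 in all libraries. Bone and cartilage markers were higher by medians of 1.68 and 1.27 (4 of 4 each), fibroblast and synovial lining markers by 0.70 (5 of 6), T cell markers by 0.55 (5 of 5 tested) and endothelial markers by 0.46 (5 of 5). Isotype replicate 4 had the highest scores of its group for the neutrophil and macrophage lists, 4.92 and 5.63 as a mean of log2(FPKM + 1). With the neutrophil score as a covariate the median difference between isotype and no CIA was 0.41 in place of 0.68. None of the 33 genes was called in that fit, and 0% of all features were. With the macrophage score the median was 0.37 and Rtp4 alone was called (1.17, adjusted p = 0.0169 in limma), where 0.0204% of all features were called higher. All 33 differences remained above 0 in both fits. Markers of muscle and epidermis went the other way: 0 of 6 and 0 of 5 were higher on average in isotype, with medians of -0.63 and -0.37 and none called. The part of these cells in the differences was not tested.

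Values of single libraries are given here beside their marker scores, and how far the 2 go together was not tested. The mean log2(FPKM + 1) over the 36 genes was 1.81 to 2.05 in the 4 no CIA libraries and at least 2.24 in every immunised library. Among the latter, 6 had a neutrophil score no higher than the highest no CIA library (2.22): isotype replicates 2 and 5, anti-TNF replicates 7 and 13, anti-IL-6 replicate 9 and combination replicate 3. Their means over the 36 genes were 2.37, 2.33, 2.29, 2.30, 2.62 and 2.24. Anti-TNF replicates 7 and 13 were also within the no CIA range of the macrophage score. The highest mean over the 36 genes, 3.63, was that of isotype replicate 4, with a neutrophil score of 4.92. The highest neutrophil score, 5.81, was that of anti-IL-6 replicate 13, with a mean over the 36 genes of 3.04.

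**Figure D5:**
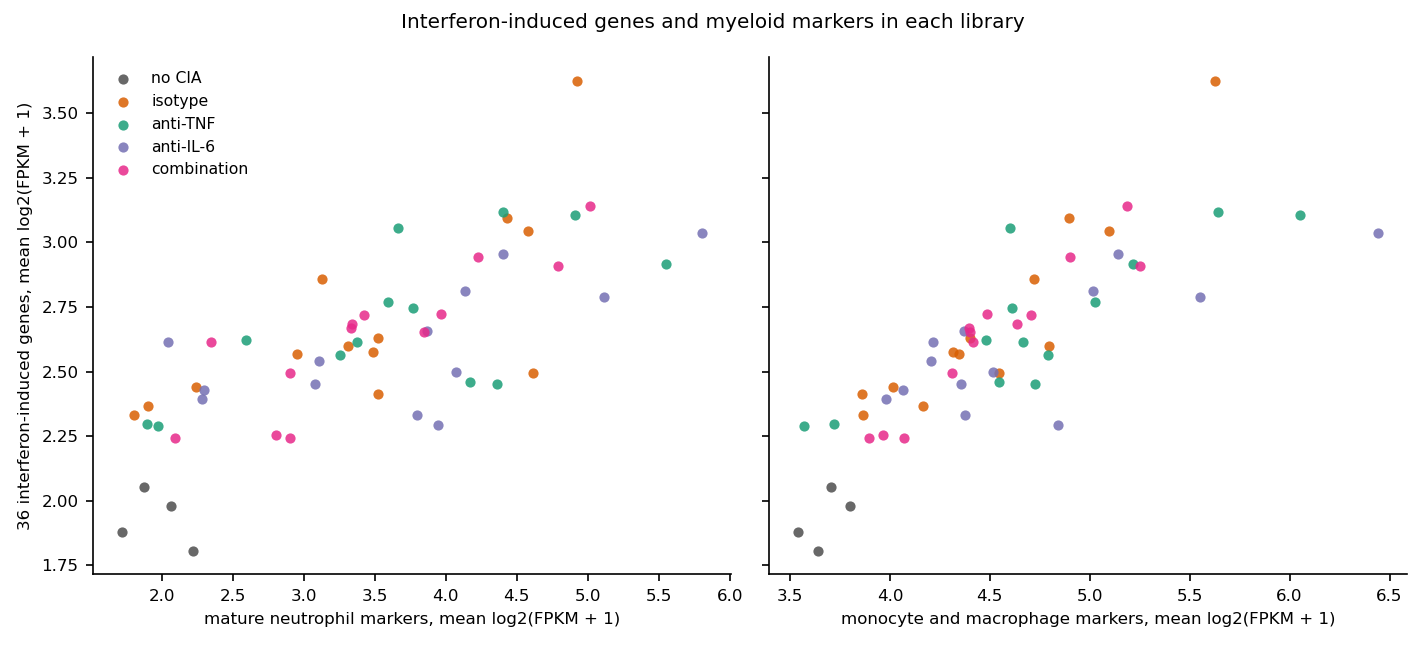
Each point is 1 library; the vertical axis is the mean log2(FPKM + 1) of the 36 interferon-induced genes and the horizontal axes are the same mean over 8 neutrophil and 10 monocyte and macrophage markers. The no CIA libraries lie lowest on the vertical axis, at 1.81 to 2.05.

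The interferons themselves were hardly seen. Of 21 interferon genes listed, 11 were at 0 FPKM in all 56 libraries and none reached the filter for testing. Ifnb1 was listed at 0 in 50 libraries, with a highest value of 0.0613 FPKM, and the highest value of any interferon gene was 0.148 FPKM, for Ifna9 in 1 combination library. Ifnk, made by keratinocytes, was above 0 in 8 libraries, and Ifng, the interferon of T and NK cells, was at 0 in 22 libraries and reached 0.1204 FPKM. At these depths 1 fragment on a transcript of 2 kb is worth at most 0.0125 FPKM, so these are values of a few fragments, and their absence from a library is not shown.

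Among further genes of the pathway, calls were made in the list led by interferon gamma. None of the 6 receptor genes tested was called between isotype and no CIA; Ifnar1 had a mean of 8.19 ± 0.448 FPKM (SD, n = 4) without CIA and 11.2 ± 3.45 FPKM (SD, n = 13) with isotype, and Ifnar2 had 19.7 ± 1.66 and 28.4 ± 7.36 FPKM, with adjusted p of 0.370 and 0.272. No call was made among the 9 kinases and factors, the 10 sensors and adaptors or the 7 brakes tested, whose median differences were 0.14, 0.14 and 0.33. Of 14 tested genes led mainly by interferon gamma, all were higher on average and 2 rose: Gbp3, a guanylate-binding protein, by 1.18 ± 0.222 (adjusted p = 0.00534), and Iigp1, an immunity-related GTPase, by 1.42 ± 0.326 (adjusted p = 0.0411). The median over these 14 was 0.91, beside 0.68 over the interferon-induced genes tested. Against no CIA, anti-TNF had 7 of these 14 higher, anti-IL-6 had 3 and the combination 2, and Gbp3 and Iigp1 were among them in each group. Of plasmacytoid dendritic cells, known as strong makers of type I interferon, 6 of 7 markers were tested between isotype and no CIA, with 4 higher on average and none called. Cox6a2, also a muscle gene, made up most of their summed level, so no sum is given. Siglech, a defining marker, lay at 0.806 to 1.15 FPKM without CIA and 0.516 to 2.09 FPKM with isotype, and no marker of the list was at 0 in all libraries.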

How the data were processed

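RNA-seq of front paws was deposited as 1 table with a column per library. Qiagen columns, a strand-marking Illumina mRNA kit and paired-end runs were used, per the labels' protocols. The deposited values are FPKM made by the authors; the unit was recognised from steps of low values, as the header is silent on it. The submitters' processing notes name DESeq2, with no version; for aligner, build, annotation and use of strand: not given in the sources used here. All 36 identifiers matched GENCODE M21 (GRCm38) with their version, and coordinates are from it. Promoters are RefSeq's on GRCm38.p6; the table gave no promoter for Mx2, Dhx58, Ifi27l2a, Mx1, Parp14, Rtp4, Ifi27, Usp18, Zbp1 and Parp9.

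The 56 libraries were grouped by the labelled treatment. Features with a mean of at least 1 FPKM in any group (14700) entered 1 limma 3.58.1 fit in R 4.3.3 on log2(FPKM + 1), with a mean per group, a trended and robust prior and 51 residual degrees of freedom. Two-sided p-values were adjusted (Benjamini-Hochberg) across all of them, with a threshold of 0.05; the script was tested on simulated data first. Values of single libraries are given for genes called between isotype and no CIA and, in a role without a call, for the gene with the smallest p. The genes, lists and tests were chosen with earlier results of these data known. Genes whose libraries do not overlap, Ifi44, Zbp1, Stat2 and Irf7 among others, were given ranges after their values were seen. Marker scores are means of log2(FPKM + 1). Depth was read from whole steps of low FPKM values in single-exon genes of at least 1000 bases, where 81.1% to 88.1% of values were whole within 0.05 of a step, so counts were not rebuilt. Each library is 1 mouse by its number in the title, and nothing says whether mice shared a cage or a day. Alternatives were pseudocounts of 0.1 and 10, no filter, median-of-ratios scaling, the compared groups alone, covariates (index run, marker scores) and leaving out each library.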

Additional observations from a re-analysis of the deposited data

Results flagged for a closer look

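Cmpk2 in no CIA replicate 3 measured 1.3 FPKM while the other 3 libraries of the group lay between 0.724 and 0.738 FPKM. Its gap to the nearest of them was 0.976 of the group's whole range, past the limit for a single far sample among 4. Chance flags about 1 in 20 groups, and 36 genes were looked at in the no CIA group, so a single such value is not unusual. This library also had the highest value of the 4 for 20 of the 36 genes.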

How the results depend on the processing

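No called value changed sign. In what follows, brackets after a count give the share of all features called higher in that fit, and the shares for the index run come after the counts. Genes called between isotype and no CIA (11) numbered 18 with a pseudocount of 0.1 (0.415%), 1 with 10 (0.0068%) and 4 with the compared groups alone (0.138%). They numbered 31 with the index run, 0 with the neutrophil score (0%), 1 with the macrophage score (0.0204%) and 20 with muscle and epidermis scores (0.381%). With 1 library left out they numbered 0 to 17, where 0 to 59 features were called in all. For anti-TNF against no CIA (14) the genes called numbered 5 with a pseudocount of 10 (0.136%), 32 with the index run and 0 with either myeloid score (0.0068% each). With 1 library left out they numbered 1 to 20, where 7 to 223 features were called in all. For anti-IL-6 against no CIA (10) they numbered 0 with a pseudocount of 10 (0.068%), 29 with the index run, 0 with either myeloid score (0.0204% each) and 3 with muscle and epidermis scores (0.102%). With 1 library left out they numbered 0 to 13, where 17 to 149 features were called in all. For the combination against no CIA (7) they numbered 13 with a pseudocount of 0.1 (0.374%), 0 with 10 (0%), 4 with no filter (0.0434%) and 28 with the index run. They numbered 0 with the neutrophil score (0%), 0 with the macrophage score (0.0136%) and 15 with muscle and epidermis scores (0.333%). With 1 library left out they numbered 0 to 12, where 0 to 50 features were called in all. With the index run as a covariate, no CIA is set against isotype replicates 4 and 7, the immunised libraries of run 1; the share of all features called higher was then 14% for isotype, 16% for anti-TNF, 8.95% for anti-IL-6 and 0.748% for the combination, against 0.15%, 0.476%, 0.401% and 0.143% without it. Between anti-IL-6 and isotype (0) there was 1 call with median-of-ratios scaling, 1 with either myeloid score, 2 with muscle and epidermis scores and 0 to 1 with 1 library left out. Of all features, 184 were called higher and 61 lower with that scaling, 113 and 40 with the neutrophil score, 131 and 43 with the macrophage score, and 295 and 154 with muscle and epidermis scores. The interaction (0) had 1 with muscle and epidermis scores, where 35 of all features were called higher and 36 lower. The cause of these changes was not tested. No paired analysis was possible because the numbers only name samples in accession order and no label pairs mice across groups. Comparisons with no CIA rest on 4 libraries, and for genes below 1 FPKM the added 1 compresses differences.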
